A study of Mus musculus with 11 samples.

Results

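The respiratory chain genes of the nucleus were read here as 90 of the 43346 genes in the deposited count table. They are the genes whose symbols begin with Nduf, Uqcr, Cox4 to Cox8 or Atp5, together with Sdha, Sdhb, Sdhc and Sdhd, that had at least 1 read over the 11 libraries. By what each gene encodes, 80 belonged to a complex: 36 to complex I, 4 to complex II, 8 to complex III, 17 to complex IV (Ndufa4 and its paralog Ndufa4l2 included) and 15 to complex V. The other 10 share the symbols without being subunits: Ndufaf1 to Ndufaf7, the supercomplex factor Cox7a2l, and Atp5s and Atp5sl. All 90 were annotated as protein coding. The 13 subunit genes of the mitochondrial chromosome are in the table with 0 reads in every library, so they were not compared.

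The respiratory chain lies in the inner mitochondrial membrane. Complex I takes electrons from NADH and complex II from succinate, as the membrane-bound step of the citric acid cycle. Ubiquinone carries them to complex III and cytochrome c on to complex IV, which reduces oxygen. The proton gradient that complexes I, III and IV build is used by complex V, the ATP synthase. Hepatocytes are rich in mitochondria, and the chain supplies the ATP for urea and glucose synthesis.

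RNA was sequenced from livers of mice on the FVB/NJ background whose hepatocellular carcinoma was driven by MET (the hepatocyte growth factor receptor) together with β-catenin (the effector of Wnt signalling), and every library, the untreated one included, carries that model. By their response label, 6 libraries came from responders to an antibody against the T cell receptor PD-1 and 4 from non-responders to it. For 1 further library the response label says that no treatment was given, while its treatment label names the antibody like the others; it is called untreated here. The series was made to ask how directly targeting β-catenin bears on the response to that antibody, and only the antibody part is in it. Age, sex, and the share of each liver that was tumour are not in the labels, nor is whether libraries came from separate mice. A p-value here sets the difference between groups against the scatter of libraries within them, and that scatter may be technical.

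Gene counts summed to between 17876515 and 49884800 per library. In non-responder replicate 1 the read density was skewed to the 3′ side of transcripts. The median log2 ratio of density in the later over the earlier part of a transcript, divided at its midpoint, was 0.928 there and -0.412 to -0.177 elsewhere, over 4732 genes. Libraries also differ by the number in their titles, whose meaning is not given: 1, 3, 9, 13, 16 and 29 in responders and 26, 30, 32 and 37 in non-responders. Hepatocyte genes defined the tissue, with Alb at 48437 CPM (read counts relative to library size, TMM-scaled) or more in every treated library. The 10 hepatocyte markers summed to 102740 to 113995 CPM in responders and 133137 to 162194 in non-responders. Alb had the most reads of them (25310080 over the 11 libraries) and so weighs most in the sums. By gene 6 of the 10 log2 fold changes were above 0, with a median of 0.19 (5 and 0.02 without non-responder replicate 1). By edgeR 1 of them (10%) was higher and 2 (20%) lower in responders, where 4.11% of all genes were higher and 5.82% lower. The 6 fetal or tumour hepatocyte markers summed to 2.23 to 240.4 CPM in responders and 308 to 865 in non-responders, with 2 of the 6 lower; responder replicates 4 and 6 stood at 215 and 240.4 and the other responders at 3.44 or less. The 5 erythroid markers summed to 77.3 to 181 CPM in responders and 137 to 269 in non-responders, and 2 of the 5 were lower. No marker of these 3 lists was at 0 in all libraries. Of the T cell markers 1 of 6 (16.7%) and of the endothelial markers 1 of 5 (20%) were lower, against 5.82% of all genes. For the fetal or tumour and the erythroid markers these shares were 33.3% and 40%. In the T cell list 0 of 6 log2 fold changes were above 0. In the endothelial list 3 of 5 were, with a median of 0.15 (2 and -0.08 without non-responder replicate 1). Cholangiocyte, macrophage, B cell, neutrophil and stellate markers had none past the threshold in edgeR, with sums up to 526 CPM. At an unadjusted p under 0.05 there were 2 of 6 cholangiocyte and 4 of 6 stellate markers, where 27.3% of all genes were. Striated muscle and brown fat markers were too scarce to test, at 0.381 and 0.571 CPM in sum or less. What part cell makeup plays in the values below was not tested, and in bulk tissue fewer cells of a type and less RNA per cell cannot be told apart.

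Respiratory chain genes were mostly at higher levels in the livers of responders, by modest amounts, and a minority of them passed the test singly. Of 87 tested, 7 were higher in responders and 0 lower (edgeR's quasi-likelihood test, Benjamini-Hochberg adjusted over all 17610 genes tested), a share of 8.05% higher where 4.11% of all genes were higher and 5.82% lower (9.93% in either direction). At an unadjusted p under 0.05 there were 27 higher (31.03%, against 12.3% of all genes) and 0 lower, and DESeq2 and limma-voom with quality weights also called 0 lower. The 7 higher genes were Ndufb9 and Ndufb5 of complex I, Sdhb of complex II, Uqcrc1 and Uqcrfs1 of complex III, Ndufa4 of complex IV and the assembly factor Ndufaf1. The median log2 fold change of the 87 genes was 0.23, where that of all genes tested was -0.02. The log2 fold change was above 0 in 70 of them (80.5%, against 48.1% of all genes). The groups did not overlap in 15, all higher in responders (17.2%, against 5.6% of all genes higher and 5.66% lower). The 3 genes too scarce to test were Cox4i2, Cox6a2 and Cox8b.

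Single libraries decided which genes passed. None of the 87 genes passed in edgeR fits without non-responder replicate 2 or responder replicate 1, 2 or 5. At an unadjusted p under 0.05 these fits had 17, 19, 25 and 27. Over all genes the same fits called 38, 171, 142 and 130 higher, against 723 in the main fit. Without non-responder replicate 1, 13 of the 87 were higher (818 of 17836 over all genes). Without non-responder replicate 3, 11 were higher (836 of 17897 over all genes). In those 6 fits the median of the 87 genes stayed between 0.17 and 0.32. Once the title number entered as a covariate, the median was 0.0937 and edgeR called none of the genes (2 at an unadjusted p under 0.05). The loss was not particular to these genes. Over all genes tested that fit called 0 higher and 1 lower, against 723 and 1025 in the main fit. Title numbers are mostly lower in responders, so that fit cannot separate them well from response.

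**Figure D1:**
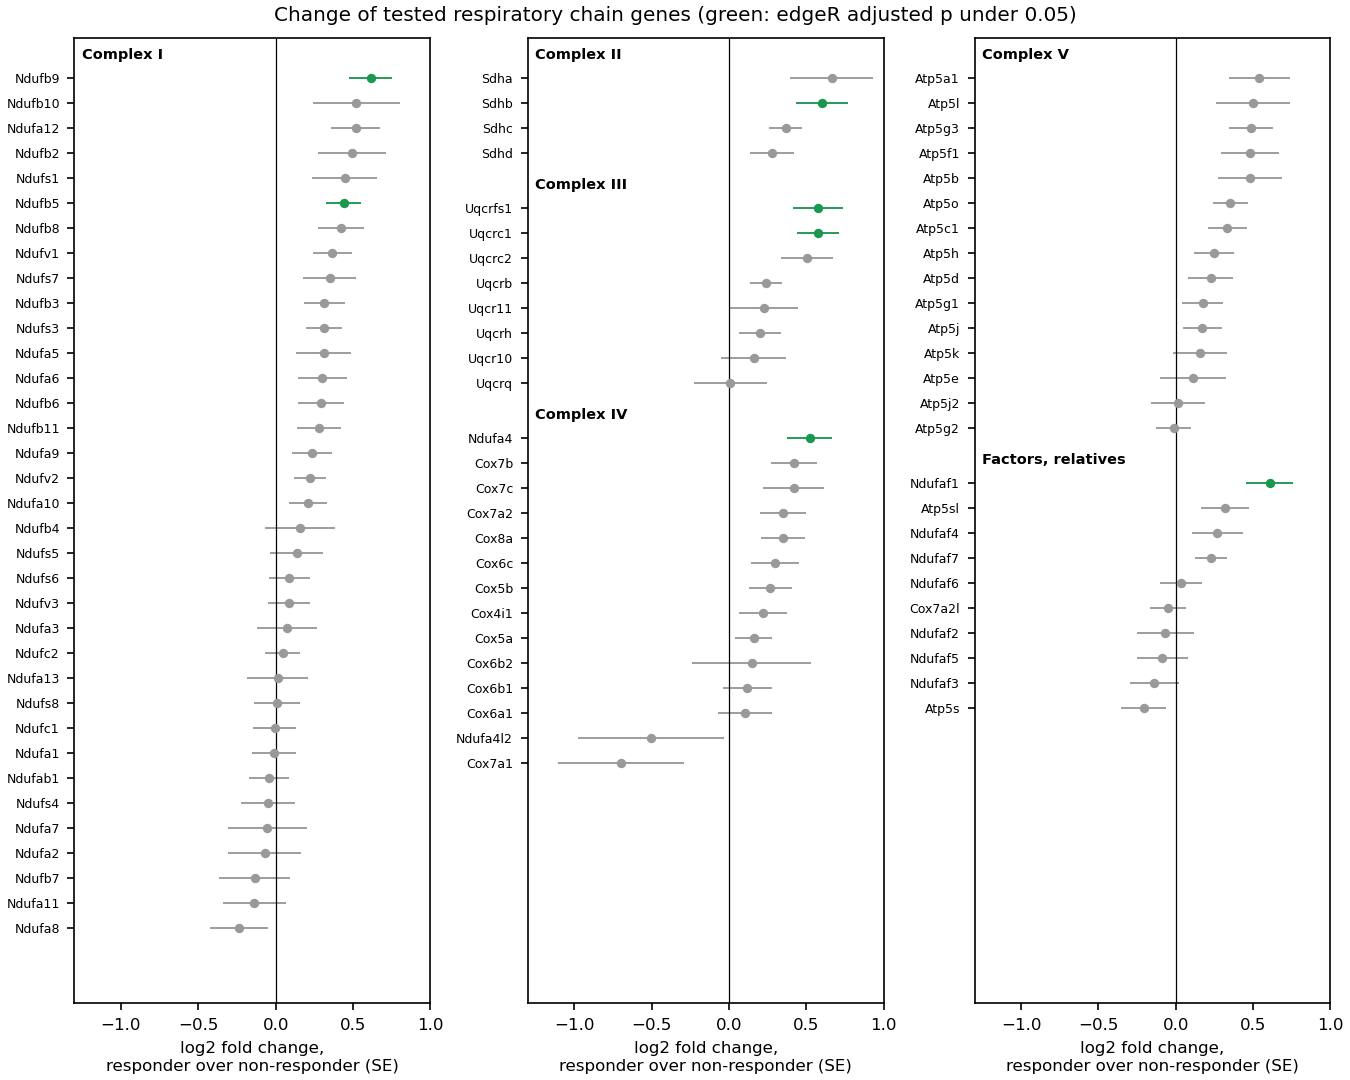
Log2 fold change of responders over non-responders (x axis) for 86 of the tested genes, by complex, with bars of 1 SE; green marks an edgeR adjusted p under 0.05. Most points lie to the right of 0, at most 0.66, and the 10 factors and relatives spread on both sides.

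Promoters of 3 of the higher genes are shown because respiratory chain genes share motifs of a few widely expressed factors near their starts: NRF1 and the ETS factor GABP, known activators of nuclear genes for mitochondrial proteins, and YY1. The 3 are those of smallest p with an entry in the RefSeq table (GRCm38.p6), each 250 bases before to 50 after the start, 5′ to 3′, with motif matches on either strand in capitals: Uqcrc1 (chr9:108936398-108936697, plus strand), Ndufaf1 (chr2:119662785-119663084, minus strand) and Ndufb5 (chr3:32736813-32737112, plus strand).
Uqcrc1: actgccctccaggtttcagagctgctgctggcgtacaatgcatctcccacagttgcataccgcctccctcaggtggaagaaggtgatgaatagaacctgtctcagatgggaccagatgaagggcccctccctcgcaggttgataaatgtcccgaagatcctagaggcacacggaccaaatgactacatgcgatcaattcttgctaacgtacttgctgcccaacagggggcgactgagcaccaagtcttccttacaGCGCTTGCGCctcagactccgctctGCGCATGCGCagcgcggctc
Ndufaf1: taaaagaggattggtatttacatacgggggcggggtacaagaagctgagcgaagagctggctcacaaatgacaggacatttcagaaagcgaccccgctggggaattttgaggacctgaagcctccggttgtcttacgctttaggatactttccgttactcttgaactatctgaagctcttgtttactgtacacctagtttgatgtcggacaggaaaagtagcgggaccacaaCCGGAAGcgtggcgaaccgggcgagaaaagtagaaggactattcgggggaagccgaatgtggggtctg
Ndufb5: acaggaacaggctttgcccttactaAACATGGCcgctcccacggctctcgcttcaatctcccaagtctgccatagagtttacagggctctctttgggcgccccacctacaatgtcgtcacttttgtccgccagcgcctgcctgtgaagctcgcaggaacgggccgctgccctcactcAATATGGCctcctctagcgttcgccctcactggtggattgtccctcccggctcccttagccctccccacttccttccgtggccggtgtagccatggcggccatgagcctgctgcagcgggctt
Uqcrc1 holds the NRF1 motif (GCGCA, any base, then GCGC) at 2 places, from 6 and from 31 bases after the start and so within the transcript; the second reads as the motif on both strands. Ndufaf1 holds the ETS motif CCGGAAG from -18, and Ndufb5 the YY1 motif AANATGGC from -225 and from -73. These positions count from the RefSeq start. The counted gene model of Ndufb5 begins before that start, at 32736990, so its match at -73 lies within that model. Of the other higher genes, Sdhb holds 1 ETS match at 7, and Ndufa4 and Uqcrfs1 none of the 3 motifs in this window; Ndufb9 was not matched. Over the 74 tested genes of the set that matched an entry, 24.3% held the NRF1 motif, 22.97% the YY1 motif and 21.6% the ETS motif. Among all 11740 tested genes with an entry the shares were 9.58%, 8.18% and 16.97%, and among 65 cytosolic ribosomal protein genes they were 7.69%, 18.5% and 36.9%. No matches overlap one another in the windows shown.

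Complex I, the largest of the chain, had 2 of 36 genes higher in responders and 34 that did not pass. That is 5.56%, near the 4.11% of all genes. The complex had a median log2 fold change of 0.22 and values from -0.24 to 0.61. Ndufb9 (ENSMUSG00000022354, mm10 chromosome 15, 58933810 to 58939489), an accessory subunit of the membrane arm, stood from 122 to 171 CPM in the 6 responders (median 139) and at 99.2, 70.97, 106 and 92.1 in non-responder replicates 1 to 4. Every responder was above every non-responder, with 141 ± 17.9 CPM over the responders (SD, n = 6) against 91.98 ± 15.05 (SD, n = 4) and a log2 fold change of 0.61 ± 0.14 (SE, adjusted p = 0.0249 by edgeR). Per kb of listed length it was the most abundant complex I transcript, at 186 CPM per kb over the treated libraries where the median of the complex was 35.7. Ndufb5 (ENSMUSG00000027673, mm10 chromosome 3, 32736990 to 32751566), a membrane arm subunit as well, stood from 58.7 to 77.2 CPM in the 6 responders (median 64.5) and at 48.6, 39.7, 52.02 and 52.6 in non-responder replicates 1 to 4. It too kept the groups apart, with 65.4 ± 6.55 CPM over the responders (SD, n = 6) against 48.2 ± 5.98 (SD, n = 4) and a log2 fold change of 0.44 ± 0.11 (SE, adjusted p = 0.0357 by edgeR). Its exons share 616 bases with those of Mrpl47 on the other strand, so reads of both could be counted together and its value is uncertain.

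Among the catalytic core of complex I, Ndufv1 (the FMN and NADH binding subunit), Ndufs1 (which holds several iron-sulfur clusters) and Ndufs7 (near the quinone site) did not pass. Ndufv1 had a log2 fold change of 0.37 ± 0.13 (SE, adjusted p = 0.0864 by edgeR). Ndufs1 stood from 109 to 145 CPM in the 6 responders (median 130.3) and at 51.3, 91.02, 121 and 114 in non-responder replicates 1 to 4, so its lowest library by far was the one with reads toward the 3′ end. Its log2 fold change was 0.45 ± 0.21 (SE, adjusted p = 0.193 by edgeR). Ndufs7 showed the opposite arrangement, with 62.2 CPM in non-responder replicate 1 above all 6 responders (49.4 to 60.6) and 30.1 to 40.1 in the other non-responders, and a log2 fold change of 0.35 ± 0.17 (SE, adjusted p = 0.209 by edgeR). Ndufa12 and Ndufs3 also had groups that did not overlap, at 0.52 and 0.31 on the log2 scale, without passing (edgeR adjusted p = 0.0620 and 0.106). The log2 fold change was below 0 for 9 genes, the lowest being Ndufa8 at -0.24. Without non-responder replicate 1 all 36 complex I genes had values above 0, and 5 were higher. Ndufa8 stood at 97.6 CPM in non-responder replicate 1 and between 44.9 and 58.02 in the other treated libraries. Ndufs3, Ndufa12 and Ndufa8, which are described here after their values were seen, lie outside the rule for named genes.

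Complex II, succinate dehydrogenase, is encoded wholly in the nucleus. Sdha binds FAD and oxidises succinate, Sdhb carries the iron-sulfur clusters, and Sdhc and Sdhd anchor them in the membrane. All 4 genes had positive log2 fold changes, and 1 of the 4 was higher in responders (25%, against 4.11% of all genes). Their median was 0.48, the highest of the 5 complexes. That order rested on non-responder replicate 1: without it the median was 0.38 for complex II, 0.30 for complex I, 0.38 for complex III, 0.40 for complex IV and 0.32 for complex V. Sdhb (ENSMUSG00000009863, mm10 chromosome 4, 140961203 to 140979193) stood from 156 to 239 CPM in the 6 responders (median 175) and at 144, 87.4, 136 and 116 in non-responder replicates 1 to 4. Its groups did not overlap, with 183 ± 31.2 CPM over the responders (SD, n = 6) against 121 ± 25.2 (SD, n = 4) and a log2 fold change of 0.60 ± 0.17 (SE, adjusted p = 0.0463 by edgeR). Sdhc kept the groups apart as well, from 110.5 to 136 CPM in the 6 responders (median 119.8) and 89.3, 82.3, 104 and 99.4 in the non-responders, and at 0.37 ± 0.11 (SE, adjusted p = 0.0521 by edgeR) it just missed the threshold.

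Sdha had the largest log2 fold change of all 87 genes and the fifth largest error, 0.66 ± 0.27 (SE, adjusted p = 0.134 by edgeR). It stood from 372 to 524 CPM in the 6 responders (median 453) and at 129, 256, 401 and 362 in non-responder replicates 1 to 4, and the value of non-responder replicate 1 was the lowest of the 10. Without that library the log2 fold change was 0.42. Sdhd, the most abundant of the 4 per kb (123 CPM per kb), had 0.28 ± 0.14 (SE, adjusted p = 0.229 by edgeR) and overlapping groups.

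Complex III had 2 of 8 genes higher in responders (25%, against 4.11% of all genes), a median log2 fold change of 0.23 and no value below 0. Uqcrc1 (ENSMUSG00000025651, mm10 chromosome 9, 108936633 to 108949623), a core protein of the matrix side, stood from 194 to 256 CPM in the 6 responders (median 210.2) and at 140.3, 117, 167 and 157 in non-responder replicates 1 to 4. No non-responder reached the lowest responder, and the log2 fold change was 0.58 ± 0.14 (SE, adjusted p = 0.0285 by edgeR), with 216 ± 25.1 CPM over the responders (SD, n = 6) against 145 ± 21.6 (SD, n = 4). Uqcrfs1 (ENSMUSG00000038462, mm10 chromosome 13, 30540308 to 30545362), the Rieske iron-sulfur protein that passes electrons to cytochrome c1, stood from 142 to 182 CPM in the 6 responders (median 165) and at 77.7, 94.8, 137 and 126 in non-responder replicates 1 to 4. The groups were again apart, with 163 ± 15.5 CPM over the responders (SD, n = 6) against 109 ± 27.6 (SD, n = 4) and a log2 fold change of 0.58 ± 0.16 (SE, adjusted p = 0.0456 by edgeR). Uqcrc2, the other core protein, and Uqcrb kept the groups apart without passing, at 0.50 and 0.24 (edgeR adjusted p = 0.0799 and 0.151; both were chosen after their values were seen). Uqcr11, a small subunit and the most abundant of the complex per kb (129.7 CPM per kb), had 0.22 ± 0.22 (SE, adjusted p = 0.556 by edgeR), and its 116 CPM in non-responder replicate 1 exceeded every responder but replicate 4. Cyc1, the cytochrome c1 subunit that the symbol rule does not reach, stood from 132 to 174 CPM in the 6 responders (median 163) and at 124, 89.8, 127 and 123 in non-responder replicates 1 to 4. Every responder was above every non-responder, and its log2 fold change did not pass at 0.45 ± 0.13 (SE, adjusted p = 0.050028 by edgeR).

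Complex IV, cytochrome c oxidase, had 1 of 14 tested genes higher in responders (7.14%, against 4.11% of all genes), with a median log2 fold change of 0.24. The called gene was Ndufa4 (ENSMUSG00000029632, mm10 chromosome 6, 11900373 to 11907446), first assigned to complex I and now counted as a subunit of complex IV. It was the most abundant transcript of the whole set per kb, at 405 CPM per kb. Ndufa4 stood from 194 to 267 CPM in the 6 responders (median 219) and at 156, 121, 179 and 175 in non-responder replicates 1 to 4, with 227 ± 27.99 CPM over the responders (SD, n = 6) against 158 ± 26.6 (SD, n = 4) and a log2 fold change of 0.52 ± 0.15 (SE, adjusted p = 0.0438 by edgeR). It was the least steady of the 7 calls: it passed in 1 of the 10 refits with 1 library removed, with adjusted p up to 0.114. Cox4i1 and Cox5a, which assemble first with the mitochondrial core subunits, had 0.22 ± 0.15 (SE, adjusted p = 0.387 by edgeR) and 0.16 ± 0.12 (SE, adjusted p = 0.414 by edgeR) and overlapping groups. Exons of Cox5a overlap a transcript on the other strand, so its value is uncertain. Cox5a was low in non-responder replicate 2, at 88.8 CPM against 114 to 118 in the other non-responders.

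Several subunits of complex IV exist as a general form and a form known from heart, muscle, lung, testis or hypoxic cells, and these livers held almost only the general forms. Shares of reads were compared for 8 paralogs by two-sided exact permutation tests with Benjamini-Hochberg adjustment over the 8; the smallest two-sided p that 6 against 4 libraries allows is 0.00952. Cox7a1, the heart and muscle form, took 0.860 ± 0.404% over the responders (SD, n = 6) against 1.72 ± 0.605% over the non-responders (SD, n = 4) of the reads of Cox7a1 and Cox7a2 (exact p = 0.0381, adjusted 0.0762). It was lowest in responder replicates 1, 2, 3 and 5, at 0.483% to 0.690%, and 1.26% and 1.47% in replicates 4 and 6. Replicates 4 and 6 are the responders with the highest sums of fetal or tumour markers, and a link was not tested. The non-responders stood at 1.26% to 2.58%. By level, Cox7a1 had a log2 fold change of -0.69 ± 0.41 (SE, adjusted p = 0.299 by edgeR) and Cox7a2 one of 0.35 ± 0.15 (SE, adjusted p = 0.151 by edgeR). Cox4i2, the lung and hypoxia form, took 0.0420 ± 0.0316% over the responders (SD, n = 6) against 0.0942 ± 0.0359% over the non-responders (SD, n = 4) of the Cox4 reads, on 42 reads in all treated libraries (exact p = 0.0571, adjusted 0.0914). Ndufa4l2, a target of hypoxia signalling, took 0.396 ± 0.178% over the responders (SD, n = 6) against 0.815 ± 0.628% over the non-responders (SD, n = 4) of the reads of that pair (exact p = 0.162, adjusted 0.196). The muscle form Cox6a2 and the testis form Cox6b2 took 0.0207% and 0.290% in responders against 0.178% and 0.279% in non-responders (adjusted exact p = 0.196 and 0.943). Cox8b had 4 reads in the treated libraries and was not tested. Markers of striated muscle and brown fat were close to 0, as given above. Of the general forms, Cox6a1, Cox6b1 and Cox8a had log2 fold changes of 0.10, 0.12 and 0.35, and none passed.

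Complex V, the ATP synthase, took the largest share of the reads of the set. None of its 15 genes passed (0%, against 4.11% of all genes higher), although 14 had positive log2 fold changes. At an unadjusted p under 0.05 edgeR had 6 higher (40%, against 12.3% of all genes). By DESeq2 Atp5a1, Atp5g3 and Atp5o passed, and by limma-voom Atp5d, Atp5g3, Atp5h and Atp5o. These 2 tools called 1396 and 1611 of all 17610 genes higher. The median log2 fold change of the 15 was 0.25. Atp5a1 and Atp5b encode the α and β subunits of the catalytic head. Atp5b stood from 976 to 1194 CPM in the 6 responders (median 1045) and at 442, 732, 972 and 919.5 in non-responder replicates 1 to 4. Its highest non-responder lay just under its lowest responder, and the log2 fold change was 0.48 ± 0.21 (SE, adjusted p = 0.160 by edgeR). Atp5a1 stood from 766 to 1030.4 CPM in the 6 responders (median 905) and at 389.6, 565, 791 and 733 in non-responder replicates 1 to 4, with a log2 fold change of 0.54 ± 0.20 (SE, adjusted p = 0.103 by edgeR). In both genes non-responder replicate 1 was the lowest library.

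The membrane ring of ATP synthase is built of c subunits, which 3 genes encode: Atp5g1, Atp5g2 and Atp5g3, whose leader peptides differ while the mature protein is the same. Atp5g3 supplied most of their reads, and its share was higher in responders. It made up 84.1 ± 0.564% over the responders (SD, n = 6) against 80.3 ± 3.86% over the non-responders (SD, n = 4), with libraries from 83.1% to 84.6% against 74.5%, 81.8%, 82.2% and 82.6% (two-sided exact permutation p = 0.00952, adjusted 0.0381). Atp5g2 made up 4.42 ± 0.295% over the responders (SD, n = 6) against 6 ± 0.760% over the non-responders (SD, n = 4) (exact p = 0.00952, adjusted 0.0381), again without overlap. Atp5g1 made up 11.5 ± 0.571% over the responders (SD, n = 6) against 13.7 ± 3.11% over the non-responders (SD, n = 4), with 18.4% in non-responder replicate 1 (exact p = 0.0286, adjusted 0.0762). The 3 shares sum to 100% and are not independent. Without non-responder replicate 1 the Atp5g3 difference fell from 3.84 to 1.92 percentage points, with the groups still apart. The smallest two-sided p is then 0.0238, and the adjusted exact p of Atp5g3 was 0.0952 without that library. By level, Atp5g3 stood from 252 to 342 CPM in the 6 responders (median 299) and at 177, 183, 243 and 232 in non-responder replicates 1 to 4, at 0.49 ± 0.14 (SE, adjusted p = 0.0520 by edgeR), while Atp5g2 had -0.01 ± 0.12 (SE, adjusted p = 0.952 by edgeR). The coding parts of the 3 genes are alike, so reads could be split between them.

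**Figure D2:**
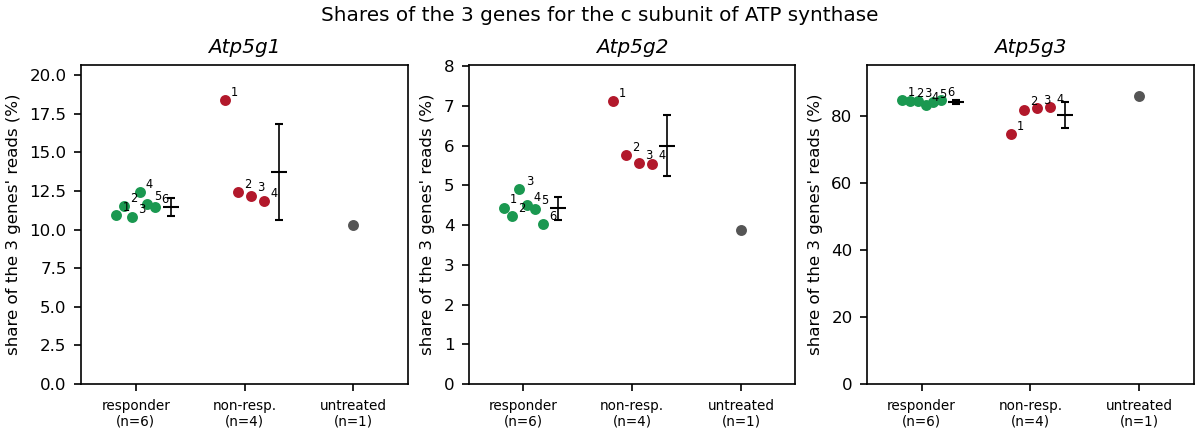
Percent of the reads of Atp5g1, Atp5g2 and Atp5g3 that fell on each gene (y axis, from 0), by library; numbers are replicates, and bars give the mean and SD of a group. For Atp5g2 all 6 responders lie under the non-responders, and non-responder replicate 1 stands at 18.4% for Atp5g1.

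Atpif1, which encodes the inhibitor that blocks ATP hydrolysis by complex V, went the other way. It is no member by symbol and belongs to a list of carriers and inhibitors. It stood from 6.08 to 11.96 CPM in the 6 responders (median 8.59) and at 24.4, 18.9, 16.1 and 14.5 in non-responder replicates 1 to 4. Every non-responder was above every responder, with 8.76 ± 1.89 CPM over the responders (SD, n = 6) against 18.5 ± 4.35 (SD, n = 4) and a log2 fold change of -1.08 ± 0.19 (SE, adjusted p = 0.0149 by edgeR). It passed in 9 of 10 refits with 1 library removed and missed the threshold without non-responder replicate 2 (edgeR adjusted p = 0.0557). Non-responder replicate 1 held the highest value, 24.4 CPM.

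**Figure D3:**
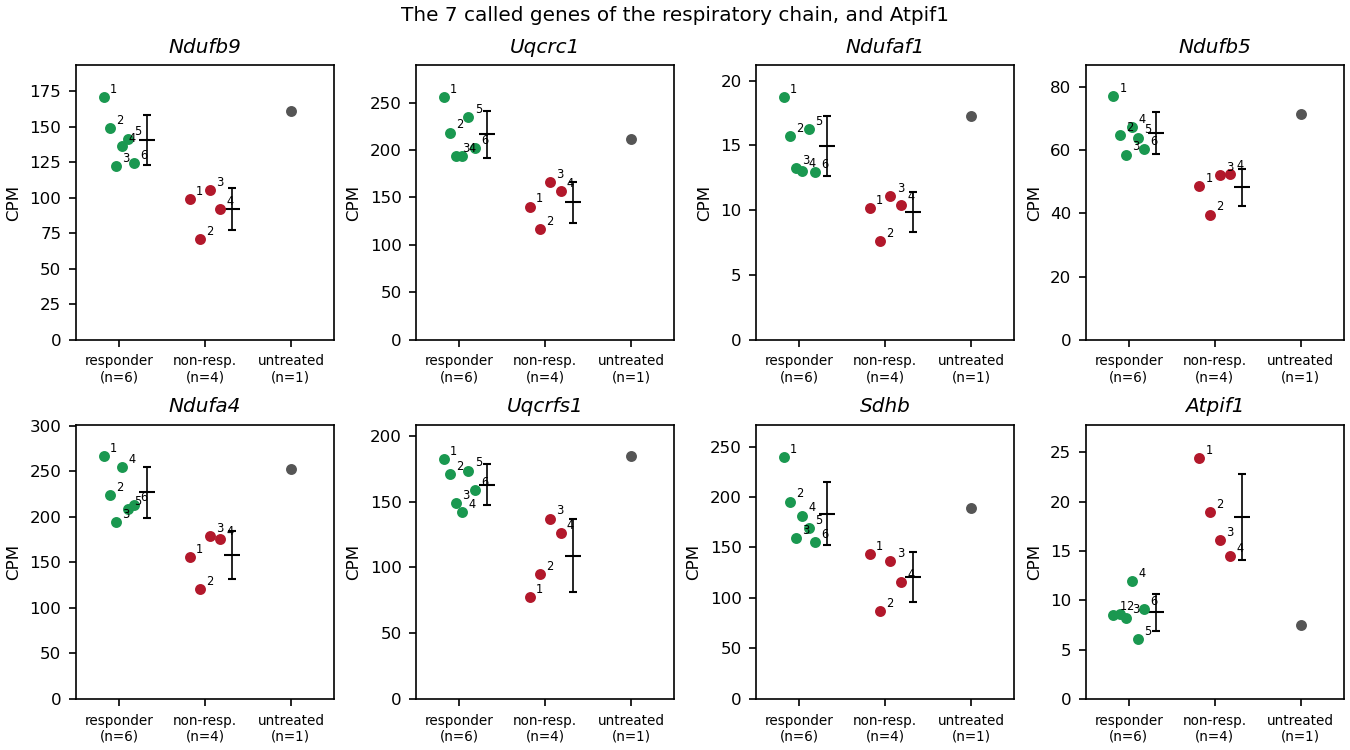
TMM-scaled CPM (y axis, from 0) of the 7 genes that passed and of Atpif1 in each library; numbers are replicates, and bars give the mean and SD of a group. In each of the 8 panels the responders and non-responders do not overlap, and Atpif1 is lower in responders.

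The assembly factors and relatives lay on both sides of 0. Their median log2 fold change was -0.01 with 5 values above 0 and 5 below, and 1 of 10 was higher in responders (10%, against 4.11% of all genes). Ndufaf1 (ENSMUSG00000027305, mm10 chromosome 2, 119655446 to 119662827), a chaperone of the early membrane arm of complex I, stood from 12.96 to 18.7 CPM in the 6 responders (median 14.5) and at 10.2, 7.62, 11.1 and 10.4 in non-responder replicates 1 to 4. Its groups did not overlap, with 14.99 ± 2.32 CPM over the responders (SD, n = 6) against 9.84 ± 1.53 (SD, n = 4) and a log2 fold change of 0.61 ± 0.15 (SE, adjusted p = 0.0314 by edgeR). Cox7a2l, which joins complexes III and IV, was the most abundant of them per kb (60.7 CPM per kb) and had -0.05 ± 0.12 (SE, adjusted p = 0.828 by edgeR). Atp5s and Atp5sl had -0.21 and 0.32 without passing (edgeR adjusted p = 0.384 and 0.205). When non-responder replicate 1 was left out, the median was 0.07, with 7 of 10 above 0. Whether subunits and factors differ was not tested.

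The calls that passed most often were Ndufb9, Uqcrc1 and Ndufaf1, which each passed in 6 of 10 refits with 1 library removed, with adjusted p up to 0.0743, 0.0806 and 0.0889. Ndufb5 passed in 5, and Uqcrfs1 and Sdhb in 3 each, with adjusted p up to 0.0997, 0.129 and 0.117. The fits that lost all of them left out non-responder replicate 2 or responder replicate 1, 2 or 5. Across the 10 fits the log2 fold change of Ndufb9 ranged from 0.52 to 0.69 and that of Uqcrc1 from 0.50 to 0.65.

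Summed over all 90 genes, the chain stood at 8993 ± 832 CPM over the responders (SD, n = 6) against 7066 ± 839 CPM over the non-responders (SD, n = 4). The responders ran from 8015 to 10447 and the non-responders stood at 7162, 5880.1, 7837 and 7386, so the groups did not overlap. The sum was 1.27 times as high in responders for the whole set, 1.17 times for complex I, 1.45 for complex II, 1.28 for complex III, 1.22 for complex IV, 1.33 for complex V and 1.08 for the factors. Complex II stood at 928 ± 111 CPM over the responders (SD, n = 6) against 641 ± 158 CPM over the non-responders (SD, n = 4), and complex V at 3324 ± 322 CPM over the responders (SD, n = 6) against 2494 ± 419 CPM over the non-responders (SD, n = 4). Both complexes kept the groups apart, while those of complexes I, III and IV overlapped through non-responder replicate 1, which stood at 2148 CPM for complex I, 958 for complex III and 1351 for complex IV. That library was also the lowest of all 11 for complexes II and V, at 469 and 2067 CPM. Of all reads of the set, complex V took 36.97 ± 1.24% over the responders (SD, n = 6) against 35.3 ± 4.31% over the non-responders (SD, n = 4), and complex I 23.6 ± 0.669% and 25.5 ± 2.99%. No test was run on sums.

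**Figure D4:**
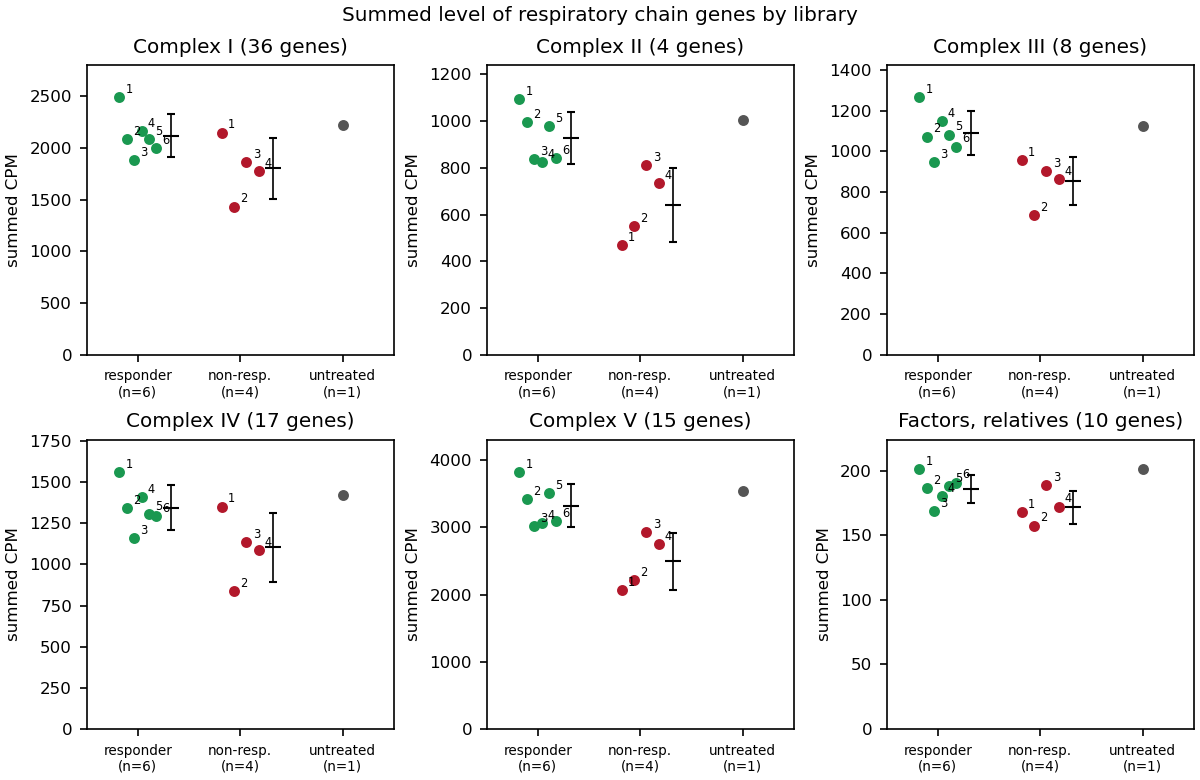
Summed TMM-scaled CPM (y axis, from 0) of the genes of each complex, by library; numbers are replicates, and bars give the mean and SD of a group. Complexes II and V keep the 2 groups apart, with non-responder replicate 1 lowest, and the untreated library lies near the upper responders.

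Single libraries carried much of the spread. In non-responder replicate 2 the genes were low throughout: 62 of 87 had their lowest treated value there, and 3 lay above the median of the 10 treated libraries. The highest sum of fetal or tumour markers, 865 CPM, and of erythroid markers, 269 CPM, belonged to the same library. Responder replicate 1 was the reverse, with 49 genes at their highest and 81 above the median. Non-responder replicate 1 was split, with 27 genes highest and 12 lowest, and its 3′ index over 54 of the genes was 0.468, against -0.426 to -0.208 elsewhere. Without it 83 of 87 log2 fold changes were above 0, the median was 0.32 and 13 genes passed. With the 3′ index as a covariate these were 82, 0.33 and 11. Over all genes 818 and 659 were called higher in these 2 fits, against 723 in the main fit. The index mainly sets non-responder replicate 1 apart, so that fit is close to leaving this library out. In the other libraries 22 to 70 genes of responders 2 to 6, and 24 and 10 of non-responders 3 and 4, lay above the median. Responder replicates 4 and 6, whose sums of fetal or tumour markers lay between those of the other responders and of the non-responders, had 55 and 59 above it. A link with these markers was not tested.

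Across the 87 genes the log2 fold change was higher for more abundant transcripts, with a Pearson r of 0.557 and a Spearman rho of 0.4932 against log2 mean CPM, and 0.404 and 0.304 against log2 CPM per kb. These are descriptions across genes, which share libraries and scaling and are not independent. Genes with 1 responder far above the rest were Ndufb10 in replicate 1 (155 CPM, against 58.7 to 74.96 in the other responders) and Atp5l in replicate 4 (17.3 against 7.24 to 10.6), both chosen after their values were seen.

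**Figure D5:**
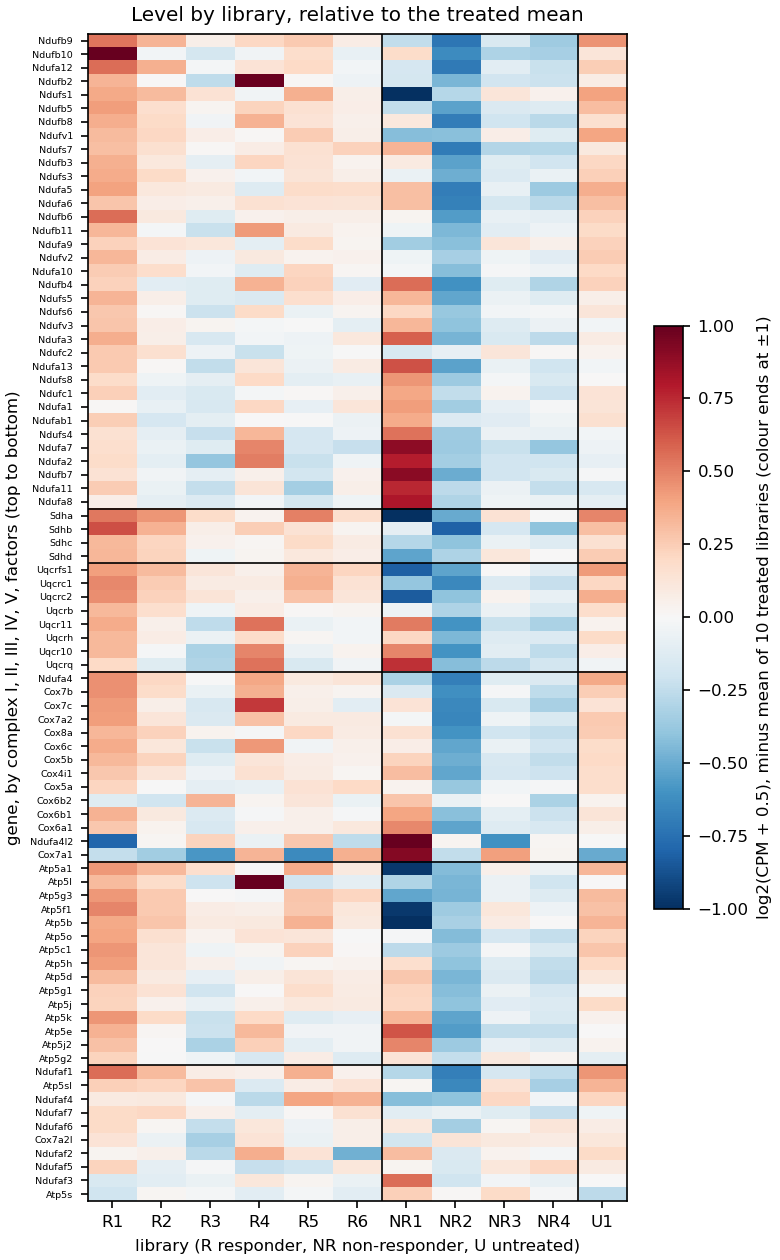
Level of 86 of the tested genes (rows, by complex) in each of the 11 libraries (columns), as log2(CPM + 0.5) minus the mean of the 10 treated libraries; red is higher, blue lower. Non-responder replicate 2 is blue in nearly every row, responder replicate 1 mostly red, and non-responder replicate 1 is red in some rows and dark blue in others.

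The citric acid cycle supplies the chain with NADH and succinate. Of 19 genes of that cycle, pyruvate dehydrogenase and pyruvate carboxylase (Pcx) 3 were higher in responders and 0 lower (15.8% higher, against 4.11% of all genes). Their median log2 fold change was 0.38. At an unadjusted p under 0.05 edgeR had 9 of the 19 higher and 2 lower, where 12.3% of all genes were higher. DESeq2 called 7 higher (36.8%) and 1 lower (5.26%), and 1396 and 1661 of all 17610 genes. Those 2 lower at the unadjusted p were Idh3a and Idh2, isocitrate dehydrogenase genes, at -0.56 ± 0.18 (SE, adjusted p = 0.0669 by edgeR) and -0.29 ± 0.11 (SE, adjusted p = 0.108 by edgeR). Without non-responder replicate 1 there were 2 higher and 1 lower, with a median of 0.22. The 3 higher genes were Suclg1 and Suclg2, subunits of succinyl-CoA ligase, which makes the succinate that complex II oxidises, at 0.61 ± 0.15 (SE, adjusted p = 0.0315 by edgeR) and 0.56 ± 0.16 (SE, adjusted p = 0.0489 by edgeR), and Ogdh of the oxoglutarate dehydrogenase complex at 0.41 ± 0.11 (SE, adjusted p = 0.0435 by edgeR). Suclg1 stood from 151 to 207 CPM in the 6 responders (median 162) and at 85.1, 106, 133 and 123 in non-responder replicates 1 to 4, with no overlap. Among 18 electron carriers, Coq and Pdss genes of ubiquinone synthesis and other entry points 1 was higher and 0 lower. That is 5.56% higher, near the 4.11% of all genes, with a median of 0.04. At an unadjusted p under 0.05 edgeR had 7 of these 18 higher and 0 lower, where 12.3% of all genes were higher. With RLE scaling 3 were called higher (16.7%), and by DESeq2 6 (33.3%). Over all 17610 genes these fits called 729 and 1396 higher. The gene called in the main fit was Sqrdl, which passes electrons from sulfide to ubiquinone, at 1.22 ± 0.27 (SE, adjusted p = 0.0239 by edgeR). It had 191 ± 50.6 CPM over the responders (SD, n = 6) against 82.04 ± 27.8 (SD, n = 4). Of 11 tested genes in the list of carriers and inhibitors 1 was higher (9.09%, against 4.11% of all genes) and 2 lower (18.2%, against 5.82%). In that list 5 log2 fold changes were above 0, with a median of -0.025. Besides Atpif1, Slc25a4, an ADP/ATP carrier of heart and muscle, was lower at -0.89 ± 0.23 (SE, adjusted p = 0.0353 by edgeR). Slc25a10, the dicarboxylate carrier, was higher at 0.48 ± 0.13 (SE, adjusted p = 0.0363 by edgeR). Suclg2, Ogdh, Idh3a, Idh2, Slc25a4, Slc25a10 and Mrps5 fall outside the rule for named genes and were named after their values were seen.

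Of 34 assembly factors outside the symbol rule none passed in edgeR's test (0%, against 4.11% of all genes higher and 5.82% lower). At an unadjusted p under 0.05, 10 of the 34 were higher and 0 lower, where 12.3% of all genes were higher. DESeq2 and limma-voom each called 2 of them higher (5.88%), and 1396 and 1611 of all 17610 genes. Their median was 0.13, and Uqcc1, a factor of complex III, was nearest at 0.37 ± 0.11 (SE, adjusted p = 0.0590 by edgeR). Of 77 mitochondrial ribosomal protein genes 2 were higher (2.60%, under the 4.11% of all genes), Mrpl15 at 0.36 ± 0.09 (SE, adjusted p = 0.0319 by edgeR) and Mrps5 at 0.45 ± 0.12 (SE, adjusted p = 0.0364 by edgeR), with a median of 0.04 that was 0.16, with 5 higher, without non-responder replicate 1. Among 19 regulators of mitochondrial biogenesis the coactivator gene Ppargc1b alone was called (5.26%, near the 4.11% of all genes), at 1.14 ± 0.32 (SE, adjusted p = 0.0448 by edgeR). It stood from 6.92 to 11.7 CPM in the 6 responders (median 10.1) and at 2.95, 2.58, 8.37 and 3.72 in non-responder replicates 1 to 4, and non-responder replicate 3 lay within the responders. Without that library its log2 fold change was 1.65, and it passed in 2 of 10 refits with 1 library removed. Ppargc1a, the best known coactivator of the family, had -0.30 ± 0.21 (SE, adjusted p = 0.392 by edgeR). The transcription factor genes Nrf1, Gabpa and Esrra had -0.16, 0.31 and 0.20, and Tfam, which packs and transcribes mitochondrial DNA, had 0.21; none passed (edgeR adjusted p from 0.284 to 0.420). Gabpa shares exon bases with Atp5j on the other strand, so both are uncertain.

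The cytosolic ribosomal protein genes, short and abundant transcripts like most of the chain, were compared as a like list. Of 87 tested 2 were lower in responders and 0 higher (2.30% lower, under the 5.82% of all genes). Their median was -0.25, and 8 values were above 0 (9.20%, against 48.1% of all genes), where the respiratory chain had 70 of 87. Rpl22l1, a paralog of Rpl22, had the smallest p, with a log2 fold change of -0.61 ± 0.13 (SE, adjusted p = 0.0207 by edgeR). In non-responder replicate 1 these genes summed to 8406 CPM, against 4564 to 6304 in the other treated libraries. Without that library 30 of 87 values were above 0 and the median was -0.07, and limma-voom with quality weights gave 24 and -0.11. The difference between the lists was not tested.

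The untreated library lay near the responders in level, and its difference from either group was not tested. Its genes summed to 9515 CPM, above 5 of the 6 responders and all non-responders, and 76 of 87 lay above the treated median. It stood outside the range of the 10 treated libraries for few of them: 5 above (5.75%, against 8.17% of all genes tested) and 1 below (1.15%, against 7.98%). Those above were Ndufv1, at 147 CPM over a treated maximum of 139, Atp5sl, Ndufs1, Uqcrfs1 and Ndufa9 (the last named after its value was seen), and the one below was Atp5s, at 2.60 under a minimum of 2.74. The margins were at most 0.0804 on the log2(CPM + 0.5) scale. Without responder replicate 1, the highest treated library, 22 genes of the untreated library lay above the range.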

How the data were processed

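Liver RNA (TRIzol) was sequenced from Illumina TruSeq libraries, and indexing used a NEBNext small RNA kit, per the labels' protocols. Per the submitters' processing notes the build was mm10 and FastQC was used. For the aligner, counter, annotation and strand setting, nothing is given in the sources read. The authors deposited a raw count and an RPKM value per gene and library, and the same 2 values for exons of transcripts, per the file headers. The RPKM values were not used. Listed gene lengths equalled the exon bases of GENCODE M21 for 54 of the 90 members, so CPM per kb is a rough level. Members and lists were chosen with earlier results of these data known.

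The 6 responders and 4 non-responders were tested over all genes in R 4.3.3 by edgeR 4.0.16, using filterByExpr, TMM, a robust quasi-likelihood fit and Benjamini-Hochberg adjustment with a threshold of 0.05; SE is the log2 fold change over the root of F. CPM is scaled by TMM over 11 libraries. Paralog shares were compared by exact permutation (scipy 1.17.1) where the paralog had 10 or more reads. The 3′ index used genes with 4 or more exons and 500 or more exon counts in every library, 4732 in all. Motifs were searched on both strands. Alternatives were RLE scaling, library size only, no filter, DESeq2 1.42.0, limma-voom with quality weights (3.58.1), the title number or the 3′ index as a covariate, the untreated library in the fit, and each library left out. The edgeR and permutation tests were tested on simulated data. Named genes were those past the threshold, the most abundant per kb and core subunits of each complex, the paralog pairs, the members farthest outside the treated range in the untreated library, and the top gene of each other list with 6 fixed regulators and carriers; exceptions are marked, and 1 gene under this rule is not reported here. Exon overlaps of 10% or more with a gene of at least 10% of the reads make Ndufa2, Ndufb5, Ndufb6, Ndufb11, Cox5a, Cox6a2, Atp5j and Atp5o uncertain. Reads of unlisted processed pseudogenes could be counted to members.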

Additional observations from a re-analysis of the deposited data

Results flagged for a closer look

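Each group of named genes and of complex sums was searched for a library far from the rest by Dixon's test, 110 groups in all; chance alone flags about 1 group in 20, and 5 were found. Cox7a2l stood at 60.9 CPM in non-responder replicate 1, below 73.5 to 75.6 in the other non-responders. Cox5a stood at 88.8 CPM in non-responder replicate 2, below 114 to 118. Cyc1 was low in the same library too, at 89.8 CPM against 123 to 127. Esrra stood at 30.5 CPM in non-responder replicate 3, above 21.5 to 22.9. Cox8b had 0.0993 CPM in responder replicate 6 and 0 reads in the other responders, where its 4 reads over the responders are all in that library.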

How the results depend on the processing

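Of the respiratory chain genes, 4 were called higher with no filter, 0 with the title number as a covariate (edgeR; 2 at an unadjusted p under 0.05), 11 with the 3′ index, 17 by DESeq2, 25 by limma-voom, and 0 to 13 in fits without a library; 7 were called under RLE scaling and with the untreated library in the fit, and 8 on library size only. None was called lower in any fit run. Their median log2 fold change was 0.0937 to 0.329 over all fits, and 0.170 to 0.323 in fits without a library. Over all genes, 0 were higher and 1 lower with the title number, 1396 and 1661 by DESeq2, 1611 and 2012 by limma-voom, and 38 to 836 and 41 to 1158 without a library. Of the other mitochondrial lists 8 genes were higher and 2 lower in the main fit, where 4.11% of all genes were higher and 5.82% lower. Genes tested were 34 (assembly factors), 18 (electron carriers), 19 (citric acid cycle), 19 (biogenesis), 11 (carriers and inhibitors) and 77 (mitochondrial ribosome). By list 0% to 15.8% were higher and 0% to 18.2% lower. With no filter 2 were higher, and with the title number there were 0 and 0. There were 25 higher by DESeq2, 25 and 4 by limma-voom, and 0 to 13 and 0 to 3 without a library. The cause of these changes was not tested. Differences in share without a library ran from -2.88 to -0.712 percentage points for Atp5g1, -1.73 to -1.21 for Atp5g2, 1.92 to 4.61 for Atp5g3, -1.01 to -0.569 for Cox7a1, -0.0646 to -0.0394 for Cox4i2, -0.217 to -0.0716 for Cox6a2, -0.0360 to 0.0337 for Cox6b2 and -0.609 to -0.125 for Ndufa4l2. The smallest two-sided p is 0.0159 without a responder and 0.0238 without a non-responder, so adjusted exact p-values over 8 tests are coarse. For Atp5g2 and Atp5g3 they were 0.0423 without responder replicate 4 or 6 and 0.0635 without responder replicate 1, 2, 3 or 5. Without a non-responder they were 0.0762 to 0.0952. Atp5g1 passed without responder replicate 4 and Cox7a1 without responder replicate 6, both at 0.0423. Such p-values do not separate an unstable difference from a smaller test. Summed levels without a library were 8702 to 9188 CPM in responders and 6809 to 7462 in non-responders. The untreated library had 5 to 22 genes above the range and 1 below when a library was left out. No paired analysis was possible because the labels give the groups no shared replicate numbers. Counting error is small for most of these genes, but Cox4i2, Cox6a2, Cox6b2 and Cox8b rest on 7 to 122 reads.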
